A study of Mus musculus with 8 samples.

Results

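Opioid receptors signal through heterotrimeric G proteins, and the 9 genes described here encode the alpha subunits that define the 3 main classes of these proteins in neurons. They were chosen by name: Gnai1, Gnai2, Gnai3, Gnao1 and Gnaz form the Gi/o class, Gnas and Gnal the Gs/olf class, and Gnaq and Gna11 the Gq/11 class. All 9 were found among the 18939 genes of the count table, where a gene with several transcripts was read from the transcript with most counts. RNA of mu-opioid receptor (MOR)-expressing neurons was obtained by translating ribosome affinity purification (TRAP), in which ribosomes tagged with EGFP-L10a are pulled down with their RNA, from gross dissections aimed at the paraventricular thalamus (PVT). All mice, controls included, had the genotype OPRM1cre X EGFP-L10a on a C57Bl/6J background, in which Cre inserted at Oprm1 switches on the ribosomal tag from Rosa26, and they were 8 to 12 weeks old when the experiment began. The control group drank 0.2% saccharin and the morphine group drank morphine in 0.2% saccharin, raised to 0.5 mg/ml, over 11 days. Each group had 4 libraries, of which 2 were labelled male and 2 female, and by the labels each library pooled the dissections of 2 mice of the same sex, which is uncertain for control replicate 5. Replicates were numbered 1, 2, 5 and 6 in the control group and 3, 4, 7 and 8 in the morphine group, with 1 to 4 labelled male. The pools are the replicates here, so the P values refer to the spread between pools and not between single mice.

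An alpha subunit binds GDP at rest, exchanges it for GTP when an activated receptor engages it, and then separates from the beta-gamma dimer. Gi/o subunits inhibit adenylyl cyclase and their dimers open GIRK potassium channels and close presynaptic calcium channels, and these are the partners that MOR uses. Gs and Golf stimulate adenylyl cyclase, whereas Gq and G11 stimulate phospholipase C beta. The end of the alpha subunit contacts the receptor, and in most Gi/o members it carries the cysteine that pertussis toxin modifies.

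Because the tail of the protein tells the classes apart, the last 8 codons and the stop codon of 8 of the genes are shown with the fourth codon from the end, stop not counted, in capitals. Coordinates are on GRCm38 and sequences, taken from the GENCODE transcripts, run 5′ to 3′ on the coding strand. Gnao1 is listed with both of its endings, the A and the B form.
Gnai1 (chr5:18267019-18267045, minus strand): aacctaaaagacTGTggtctcttctaa
Gnai2 (chr9:107615635-107615661, minus strand): aacctgaaggacTGTggcctcttctga
Gnai3 (chr3:108109422-108109448, minus strand): aacttaaaggaaTGTgggctttattga
Gnao1 A (chr8:93967029-93967055, plus strand): aatctccggggcTGCggcttgtactga
Gnao1 B (chr8:93956226-93956252, plus strand): aacctacggggcTGTggactctactga
Gnaz (chr10:75015186-75015212, plus strand): aatctcaagtacATCggcctttgctga
Gnas (chr2:174346362-174346388, plus strand): catctccgccaaTACgagctgctctaa
Gnaq (chr19:16383368-16383394, plus strand): aacctgaaggagTACaatctggtctaa
Gna11 (chr10:81530795-81530821, minus strand): aacctgaaggagTACaacctggtgtga

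TGT and TGC encode cysteine, so the toxin's target codon stood in Gnai1, Gnai2, Gnai3 and both forms of Gnao1. In Gnaz, whose product Gz is the Gi/o member that the toxin does not modify, an isoleucine codon stood there, and Gnas, Gnaq and Gna11 had a tyrosine codon.

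Library totals, with 1 transcript per gene, were 37081346 to 43311792 counts in the control group and 31151106 to 47582947 in the morphine group. Values are given as CPM, the counts of a gene scaled to a common library size with TMM factors, and the 9 genes together took 4810 to 5334 CPM of a library. The rarest of them, Gnai3, had at least 868 counts in every library and Gnas had up to 117114, so counting error was small beside the differences between pools. Reads were not marked by molecule, and a count can include PCR copies. Oprm1, the gene that drives Cre, was at 25.3 ± 6.92 CPM in the control and 16.5 ± 1.95 CPM in the morphine group (SD, n = 4 each). No library was labelled as input RNA, so enrichment for MOR-expressing neurons could not be measured here. The thalamic marker list (Tcf7l2, Gbx2, Slc17a6, Calb2, Lef1, Rora) was detected in all libraries, at 1924 to 2472 CPM summed in the control and 1392 to 2598 CPM in the morphine group. Its 6 genes were not called but all had log2 fold changes below 0, with a median of -0.28 and the lowest value for Gbx2 (-0.69, unadjusted P = 0.0081, adjusted P = 0.227, edgeR). Control replicate 5 was labelled female, but its Y-linked genes came to 49.5 CPM, which is 33.8% of the mean of the male libraries, whereas the other female libraries had at most 0.0649 CPM. Comparisons of sex are therefore given with and without it.

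Marker genes of neighbouring tissue differed between libraries, and their part in the results on alpha subunits was not tested. Fits with a marker score, the mean log2 CPM of a list, are given for some genes. The 13 choroid plexus genes, of which 1 was at 0 in a library or more, summed to 43.4 to 162 CPM in the control and 219 to 683 CPM in the morphine group. Of these genes 0 were called, but 11 were higher in the morphine group at an unadjusted P below 0.05 (12.1% of all genes passed this P in either direction), 9 had groups that did not overlap (6.55% of all genes), and the median log2 fold change was 2.08. The 10 telencephalic pyramidal genes summed to 209 to 542 CPM and 408 to 852 CPM, respectively. Of these, 1 was called (0.195% of all genes were), 6 were higher at an unadjusted P below 0.05 and 3 had no overlap. Their median log2 fold change was 1.42. The 9 striatal projection neuron genes summed to 506 to 796 CPM in the control group, but in the morphine group they were at 430 and 339 CPM in replicates 3 and 8 and at 2057 and 1699 CPM in replicates 4 and 7. In bulk RNA, fewer cells of a type and less RNA per cell cannot be told apart.

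Per kilobase of transcript, Gnas had the highest level of the 9 genes in every library. The mean over the 8 libraries was 1383 CPM per kb for Gnas, with a range of 1165 to 1610. Gnao1, the major G protein alpha subunit of neurons, followed at 271 CPM per kb (228 to 296), and Gnal, which encodes the olfactory and striatal Gs relative Golf, was at 138 CPM per kb (115 to 154). These ranges did not touch on this scale. Scaled by the shorter of its transcripts, Gnal was at 227 CPM per kb (191 to 254), so its range overlapped that of Gnao1, as it also did per kilobase of coding sequence (493 to 657 for Gnal, 633 to 822 for Gnao1). Gnao1 was above Gnal in 8 of 8 libraries on each of the 3 scales. In CPM not scaled by length, Gnal was above Gnao1 in control replicates 2 and 5 and morphine replicates 3 and 4. Gnaq (73.9 CPM per kb, 61.3 to 79.9), Gnai1 (71.2, 58.6 to 86.6) and Gnai2 (56.9, 47.6 to 67.2) came next, and their ranges overlapped. Gnai1 exceeded Gnaq in control replicate 6 and morphine replicate 3, and Gnai2 exceeded Gnai1 in control replicate 2. Gna11 was at 47.9 CPM per kb (37.8 to 53.6) and Gnaz at 38.3 CPM per kb (26.4 to 44.7), with Gna11 above Gnaz in every library although their ranges overlapped. Gnai3 was the lowest at 8.13 CPM per kb (6.78 to 9.51). The length used matters for genes with long untranslated ends. Per kilobase of coding sequence, the level was 2008 for Gnas, 752 for Gnao1, 587 for Gnal, 387 for Gnaq, 210 for Gnai1, 152 for Gna11, 126 for Gnaz and 118 for Gnai2, with Gnai3 again the lowest, so on this scale Gnai2 came after Gna11 and Gnaz.

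The main question was whether chronic morphine changed the alpha subunits of MOR-expressing neurons, as morphine acts through Gi/o. Across the 9 genes, 0 were called at an adjusted P below 0.05 by the quasi-likelihood test of edgeR, with P values adjusted by Benjamini-Hochberg over all 18939 genes, where 37 genes (0.195%) were called. At an unadjusted P below 0.05 there was 1 member, Gnai2, and 2292 genes (12.1%) of the table. DESeq2 also called 0 of the 9, with 1 at an unadjusted P below 0.05, although it called 498 of the 15994 genes it tested (3.11%). limma-voom called 0 of the 9 and 23 genes of the table (0.121%), with 0 and 2378 (12.6%), respectively, at an unadjusted P below 0.05. The CPM ranges of the control and morphine libraries overlapped in all 9 genes, whereas 1240 genes of the table (6.55%) had groups that did not overlap. The median size of the log2 fold change was 0.053 over the 9 genes, 0.192 over all genes and 0.125 over the 9372 genes with a mean of at least 10 CPM. The median log2 fold change was -0.03 over the 9 genes, of which 4 were above 0 and 5 below, and 0.0088 over all genes. The 95% intervals, which are not adjusted for the number of genes, ran from a fold of 0.70 at the lowest to 1.31 at the highest over the 9 genes.

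**Figure D1:**
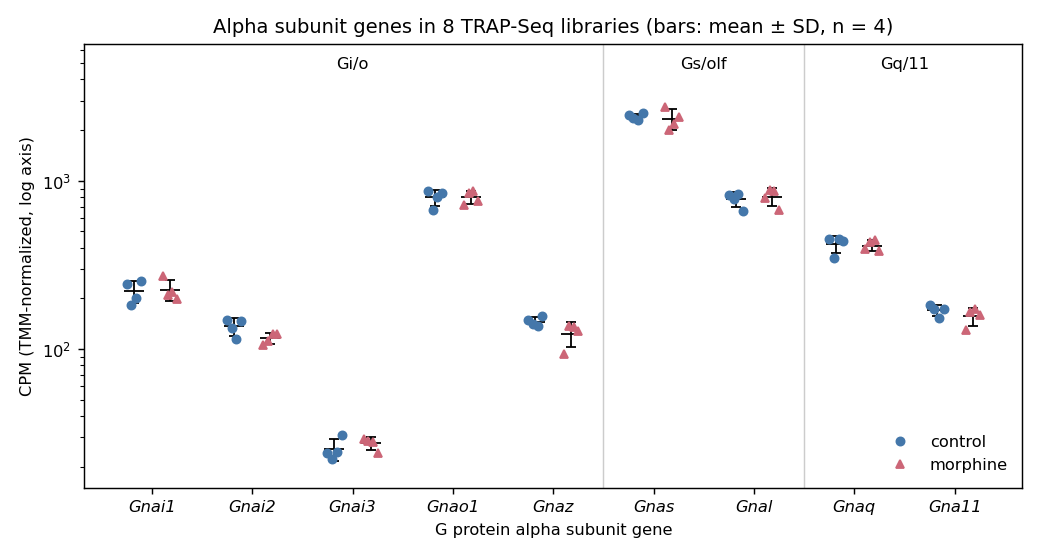
Expression of the 9 alpha subunit genes in CPM (log axis), with each point a library (blue circles, control; red triangles, morphine) and bars showing mean ± SD of 4 libraries. The groups overlap in each gene, and the largest distances between group means on this axis are those of Gnai2 and Gnaz, with the control mean higher.

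In the Gi/o class, Gnai2 and Gnaz were lower in the morphine libraries on average, without passing the adjusted threshold, and the other members were close to no difference. Gnai2 encodes a widely expressed Gi subunit (chromosome 9, 107614125 to 107635367, minus strand). Its control libraries were at 149, 134, 115 and 148 CPM (replicates 1, 2, 5 and 6) and its morphine libraries at 105, 111, 123 and 123 CPM (replicates 3, 4, 7 and 8). Control replicate 5 lay among the morphine libraries, and the other 3 control libraries were above all 4 of them. The means were 136 ± 15.9 CPM and 116 ± 8.84 CPM (SD, n = 4 each), a log2 fold change of -0.24 (SE 0.11, 95% interval -0.47 to -0.0031, unadjusted P = 0.0475, adjusted P = 0.407, edgeR). The value was -0.33 without control replicate 5 and -0.19 without morphine replicate 3, and adding the telencephalic score to the model gave -0.39 (adjusted P = 0.718).

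Gnaz encodes Gz, which is largely restricted to neurons and blood cells (chromosome 10, 74967177 to 75016907, plus strand). It was at 148, 141, 137 and 157 CPM in the control and at 93.1, 137, 136 and 127 CPM in the morphine libraries. Morphine replicate 3 stood well below the rest, while replicates 4 and 7 were level with control replicate 5. The means were 146 ± 9.05 CPM and 123 ± 20.8 CPM, and the log2 fold change was -0.24 (SE 0.12, 95% interval -0.51 to 0.03, adjusted P = 0.486, edgeR). A single library decided its size, as the value was -0.13 without morphine replicate 3. Without morphine replicates 4 and 7, where striatal markers were high, it was -0.43 (adjusted P = 0.339), and with the telencephalic score in the model it was -0.53 (95% interval -0.93 to -0.13, unadjusted P = 0.0142, adjusted P = 0.659). The whole of Gnaz lies within Rsph14, a coding gene on the opposite strand, and whether the counting used strand is not given in the sources used here, so reads of the pair cannot be told apart with certainty.

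Gnao1, the most abundant Gi/o member per kilobase (chromosome 8, 93809966 to 93969388, plus strand), was at 869, 672, 804 and 848 CPM in the control and at 719, 848, 873 and 754 CPM in the morphine libraries. Both groups spanned nearly the same range. The means were 799 ± 88.4 and 799 ± 73.8 CPM, with a log2 fold change of 0.00030 (SE 0.11, 95% interval -0.25 to 0.25, adjusted P = 0.999, edgeR), and the sign was the same in 10 of 20 alternative fits. Gnai1 encodes the Gi subunit that is prominent in brain (chromosome 5, 18265135 to 18360355, minus strand), and it was at 245, 184, 202 and 255 CPM in the control and at 272, 210, 220 and 199 CPM in the morphine libraries. The highest value, in morphine replicate 3, and the lowest, in control replicate 2, came from different groups, but the other libraries were mixed. Its log2 fold change was 0.02 (SE 0.13, 95% interval -0.27 to 0.32, adjusted P = 0.966, edgeR). Gnai3, another Gi subunit of broad expression (chromosome 3, 108107280 to 108146146, minus strand), was at 24.1, 22.1, 24.5 and 31.0 CPM in the control and at 29.4, 28.5, 28.2 and 24.2 CPM in the morphine libraries. Control replicate 6 was the highest of all 8, and the other control libraries lay at or near the lower end. Its log2 fold change was 0.12 (SE 0.12, 95% interval -0.15 to 0.39, adjusted P = 0.714, edgeR), which was 0.20 without control replicate 6 and 0.05 without control replicate 2.

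In the Gs/olf class, neither gene was called, and the 2 genes had opposite extremes in morphine replicates 4 and 7. Gnas encodes Gs, the general stimulator of adenylyl cyclase (chromosome 2, 174284320 to 174346744, plus strand). It was at 2446, 2361, 2304 and 2530 CPM in the control and at 2763, 2000, 2179 and 2407 CPM in the morphine libraries. The morphine libraries held both the highest value (replicate 3) and the lowest values (replicates 4 and 7), so the SD was 99.0 CPM in the control and 329 CPM in the morphine group around means of 2410 and 2337 CPM. The log2 fold change was -0.04 (SE 0.12, 95% interval -0.31 to 0.22, adjusted P = 0.908, edgeR). Without replicates 4 and 7 of the morphine group it was 0.08, with the sign turned. Part of Gnas lies opposite the coding gene Gm20721 and the antisense gene Nespas.

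Gnal (chromosome 18, 67088216 to 67226792, plus strand) was at 818, 778, 840 and 662 CPM in the control and at 791, 883, 868 and 672 CPM in the morphine libraries. Morphine replicates 4 and 7 had the highest values of all 8 libraries. The means were 775 ± 79.3 and 803 ± 96.7 CPM, with a log2 fold change of 0.05 (SE 0.12, 95% interval -0.21 to 0.32, adjusted P = 0.887, edgeR), which turned to -0.11 without these replicates and was 0.02 with the striatal score in the model. The same replicates were high in Gng7, the gamma subunit that pairs with Golf in striatum, which was at 174, 211, 147 and 150 CPM in the control and at 140, 436, 388 and 125 CPM in the morphine libraries (log2 fold change 0.67, SE 0.36, adjusted P = 0.495, edgeR, 0.26 with the telencephalic and 0.33 with the striatal score, and -0.39 without these replicates). They were also high in Ppp1r1b, the striatal phosphoprotein DARPP-32, at 435 and 374 CPM against 28.3 to 170 CPM in the other 6 libraries. Gnal itself varied far less than these genes, being at 662 to 840 CPM in the other 6 libraries. Gnal overlaps Chmp1b on its own strand and Mppe1 on the opposite strand.

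**Figure D2:**
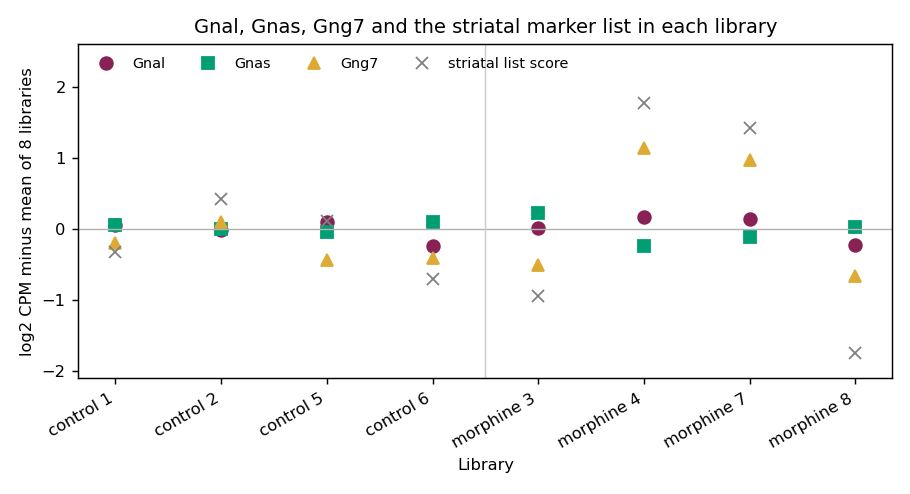
Gnal, Gnas, Gng7 and the mean of the striatal marker list in each of the 8 libraries, as log2 CPM minus the mean of the 8 libraries. Morphine replicates 4 and 7 are the highest in Gng7, Gnal and the striatal list and the lowest in Gnas.

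In the Gq/11 class, both log2 fold changes were below 0 and neither gene was called. Gnaq encodes Gq, the activator of phospholipase C beta (chromosome 19, 16132831 to 16387463, plus strand). It was at 451, 346, 451 and 439 CPM in the control and at 392, 433, 443 and 382 CPM in the morphine libraries. Control replicate 2 was the lowest of the 8, and the other control libraries lay at or above most of the morphine libraries. The log2 fold change was -0.03 (SE 0.11, 95% interval -0.27 to 0.21, adjusted P = 0.931, edgeR), and without control replicate 2 it was -0.12. Gna11, which encodes the close relative G11 (chromosome 10, 81528724 to 81545190, minus strand), was at 183, 172, 152 and 174 CPM in the control and at 129, 166, 173 and 159 CPM in the morphine libraries. Morphine replicate 3 was the lowest, as it was for Gnaz and Gnai2. The log2 fold change of Gna11 was -0.12 (SE 0.11, 95% interval -0.36 to 0.12, adjusted P = 0.677, edgeR), and without a single library it ranged from -0.04 (morphine replicate 3) to -0.19 (morphine replicate 7), with -0.18 without control replicate 5. It was -0.28 with the telencephalic score in the model and -0.26 without morphine replicates 4 and 7.

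**Figure D3:**
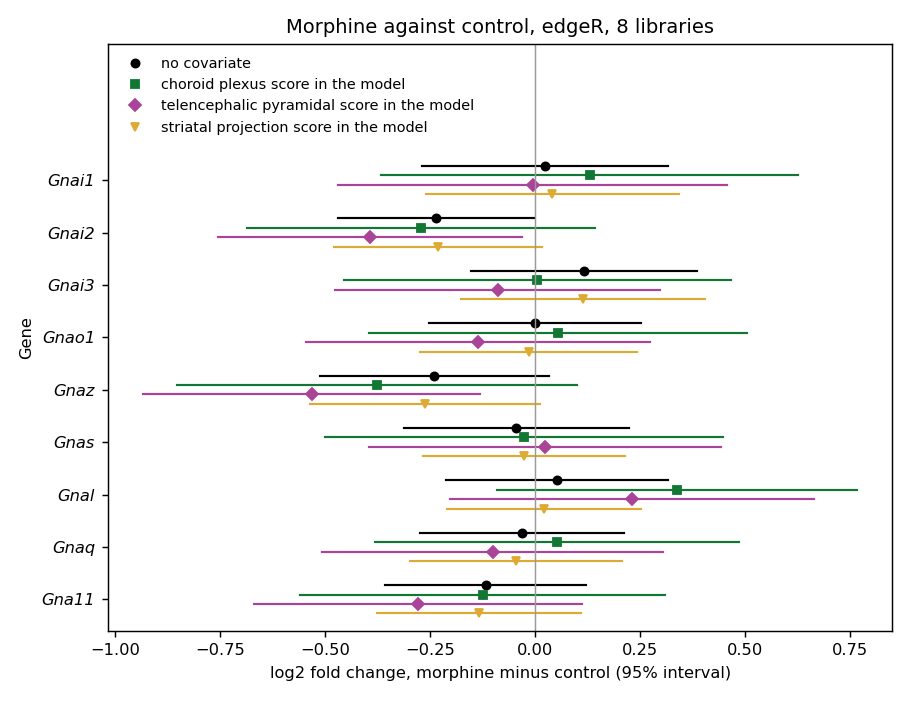
Log2 fold change of morphine against control for each alpha subunit gene with its 95% interval from edgeR over 8 libraries, without a covariate (black circles) and with the choroid plexus (green squares), telencephalic (purple diamonds) or striatal (yellow triangles) marker score in the model. Without a covariate the intervals of 8 genes hold 0 and that of Gnai2 ends at -0.0031, and the intervals are wider with the choroid plexus or telencephalic score.

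Marker scores in the model moved single values but made no calls. The choroid plexus score ran from -0.37 to 2.00 in the control and from 2.27 to 3.56 in the morphine libraries, without overlap. The telencephalic score ran from 2.79 to 4.96 and from 4.35 to 5.63, respectively. Fits with these scores therefore cannot tell marker content from morphine, also where a value shrank or a call was lost. With the choroid plexus score, the log2 fold change was 0.34 for Gnal (95% interval -0.09 to 0.77), -0.38 for Gnaz and -0.27 for Gnai2. With the striatal score it was -0.23 for Gnai2 and -0.26 for Gnaz. Gnai2, Gnaz and Gna11 were below 0 in each of the 20 alternative fits, and the lowest adjusted P over these fits was 0.266 for Gnai2, 0.339 for Gnaz and 0.516 for Gna11.

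The balance of the classes was compared as the share of each in the summed CPM per kilobase of the 9 genes, to see whether Gi/o moved against Gs/olf and Gq/11. No P value is given for these shares, since they are sums over chosen genes. The Gi/o share was 22.4%, 19.5%, 21.2% and 22.2% in the control and 18.2%, 23.9%, 23.2% and 20.4% in the morphine libraries. The Gs/olf share was 71.6%, 74.9%, 72.7% and 72.0% in the control and 77.0%, 69.5%, 70.4% and 74.0% in the morphine libraries. The Gq/11 share was 6.09%, 5.54%, 6.08% and 5.83% in the control and 4.73%, 6.61%, 6.40% and 5.57% in the morphine libraries. In each class the morphine libraries held both the highest and the lowest share, with replicate 3 at one end and replicate 4 at the other. The mean Gi/o share was 21.3% ± 1.29 in the control and 21.4% ± 2.62 in the morphine group (SD, n = 4 each), and those of Gs/olf were 72.8% ± 1.50 and 72.7% ± 3.47. The mean Gq/11 shares were 5.88% ± 0.261 and 5.83% ± 0.858. Differences between the group means were thus far within the spread of the libraries. Gnas alone made up 66.1% of the sum, Gnao1 13.0%, Gnal 6.62%, Gnaq 3.55%, Gnai1 3.40%, Gnai2 2.73%, Gna11 2.31%, Gnaz 1.84% and Gnai3 0.390%. Gnao1 was read from its A transcript, so reads that lie only in the B form enter neither its level nor the Gi/o share. The level of each share depended on the scale, whereas the means of the groups stayed close. With coding length, the Gi/o share was 28.2% in both groups and the Gq/11 share 12.4% and 12.3%. Summing over all transcripts of a gene lowered the Gi/o share to 5.35% and 5.46%, as Gnas is listed with 9 transcripts and reads in the exons they share are counted on each.

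**Figure D4:**
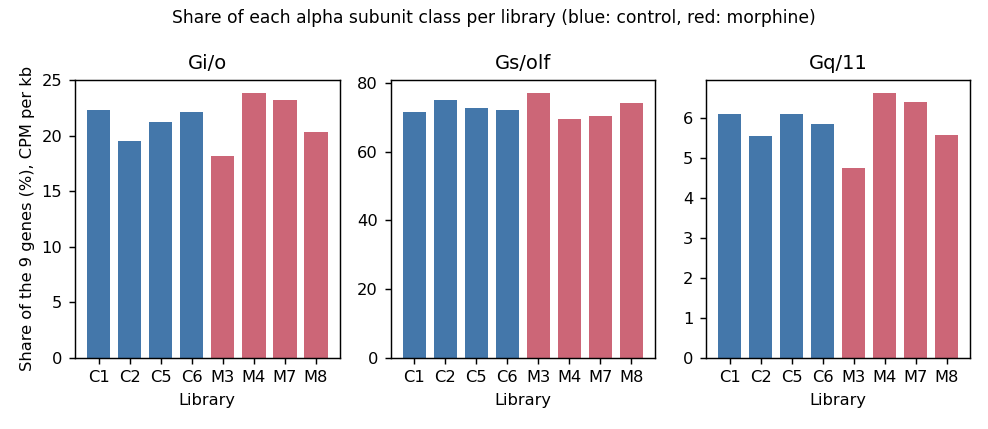
Share of the Gi/o, Gs/olf and Gq/11 genes in the summed CPM per kilobase of the 9 genes, in percent, with a bar for each library (blue, control; red, morphine; vertical axes start at 0 and differ between panels). Gs/olf takes 69.5% to 77.0% of the sum, and the morphine bars spread wider than the control bars around almost equal means.

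Gnao1, Gnas and Gnal were each listed with more than 1 transcript, 13 in all, and 0 of these 13 were called by edgeR in a fit over all 24488 transcripts, where 15 (0.0613%) were called. At an unadjusted P below 0.05 there was 1 of the 13, and 3066 transcripts (12.5%) overall. Reads in exons that transcripts share were counted on each of them. The A and B forms of Gnao1, which differ in the receptor-contacting end shown above, share 746 bases and are told apart by their last exons, while the A transcript also starts further upstream, with a starting exon of 616 bases against 141 in B. The A form had 33908, 29866, 33631 and 31252 counts in the control and 25585, 28022, 26897 and 36688 counts in the morphine libraries. The B form had 16687, 14972, 17650 and 16969 counts in the control and 12885, 13814, 13531 and 18965 counts in the morphine libraries. The B count was 49.2% to 54.3% of the A count over the 8 libraries, with means of 51.5% ± 2.30 in the control and 50.4% ± 0.983 in the morphine group (exact two-sided permutation test, P = 0.486, n = 4 each). As shared reads enter both counts and the transcripts differ in length, this ratio is not the share of B among Gnao1 molecules.

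The Gnas locus also makes XL and NESP transcripts from upstream exons, in addition to Gs. A transcript that holds the XL exon (chromosome 2, 174297859 to 174300217) and has 0 bases in common with the Gs transcript had 111, 99, 37 and 83 counts in the control and 47, 32, 47 and 50 counts in the morphine libraries. The Gs transcript, whose own exon lies at 174330089 to 174330434, had 66050 to 117114 counts. The XL count was therefore 0.0384% to 0.116% of the Gs count. Control replicate 5 had the lowest percentage and the other 3 control libraries were above all morphine libraries. The means were 0.0845% ± 0.0330 and 0.0522% ± 0.0121 (exact two-sided permutation test, P = 0.143, where 70 arrangements allow a P of 0.0286 at the smallest), and the transcript's log2 fold change was -0.76 (SE 0.33, unadjusted P = 0.0416, adjusted P = 0.374, edgeR). The NESP transcript was set against a transcript made of the XL exon and the same downstream exons, except for a last exon of 503 bases against 471. It exceeded that transcript by 46 to 311 counts. NESP could thus hold at most 93 to 410 counts, or 0.0946% to 0.391% of the Gs count, if the shared exons were counted alike. A further Gnas transcript, which joins the NESP exons to 118 bases of the Gs transcript and ends in an exon of its own (174337621 to 174338084), had 13473 to 27086 counts. How many of these lay in its own exon cannot be told from the table. Its log2 fold change was -0.16 (adjusted P = 0.644, edgeR). The 2 Gnal transcripts, which share 2521 bases, had counts within 98.8% to 101% of each other and could not be told apart.

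Female and male libraries were compared over all 8 with condition in the model. edgeR called 0 of the 9 genes between female and male libraries, with 0 at an unadjusted P below 0.05, against 1 gene (0.00528%) called and 587 genes (3.10%) at an unadjusted P below 0.05 in the table. The log2 fold changes, female minus male, ran from -0.10 for Gnal to 0.11 for Gnaz, and the lowest unadjusted P was 0.414. Without control replicate 5 they ran from -0.19 for Gnal to 0.15 for Gnaz. For the interaction of sex and morphine, edgeR called 0 of the 9 and 0 genes of the table (0%), with 0 and 325 (1.72%), respectively, at an unadjusted P below 0.05. DESeq2 also called 0 of the 9 in both comparisons. The interaction estimates ran from -0.41 for Gnai3 (unadjusted P = 0.128) to 0.29 for Gnai2 and Gna11. Gnai2 had a morphine effect of -0.38 in males (95% interval -0.74 to -0.03) and of -0.09 in females (-0.45 to 0.27), and the interaction did not pass the test (unadjusted P = 0.230, adjusted P = 1.00). Without control replicate 5, where the lone female control library is assumed to vary like the other groups, edgeR called 0 of the 9 and 0 genes of the table for the interaction, with 0 and 309 (1.63%) at an unadjusted P below 0.05. The interaction estimates then ran from -0.56 for Gnai3 (unadjusted P = 0.0725) to 0.21 for Gna11, and the morphine effect on Gnai2 in females was -0.27 (95% interval -0.73 to 0.18).

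Other genes of the pathway were read from fixed lists and by the same edgeR fit. Of the other alpha subunit genes, 6 of 7 were in the table and 0 were called, with 0 at an unadjusted P below 0.05. Gna12, a subunit of the G12/13 class, had a log2 fold change of 0.23 (adjusted P = 0.677) that turned to -0.25 with the choroid plexus score in the model and was 0.05 without control replicate 1 and 0.43 without control replicate 5, and its relative Gna13 had -0.12 (adjusted P = 0.677), which was -0.22 with the choroid plexus score, -0.30 with the telencephalic score and -0.04 without control replicate 6. Among the modulators of alpha subunits, which include exchange factors and dissociation inhibitors, 0 of 14 were called, and 3 had an unadjusted P below 0.05 (12.1% of all genes did), Gpsm1, Gpsm2 and Gprin2, which were also those without overlap (6.55% of all genes). Gpsm1, a GoLoco protein like Gpsm2 and named after its values were seen, was at 89.0 ± 9.70 CPM in the control and 64.8 ± 5.52 CPM in the morphine group, without overlap (log2 fold change -0.46, SE 0.10, adjusted P = 0.107, edgeR). Gpsm2, a GoLoco protein that binds Gi subunits, was at 6.29 ± 0.983 CPM in the control and 9.43 ± 1.16 CPM in the morphine group, with groups that did not overlap (log2 fold change 0.58, SE 0.15, adjusted P = 0.159, edgeR). Gprin2, which binds activated Gi/o subunits, was at 3.76 ± 0.688 and 2.32 ± 0.268 CPM, also without overlap (log2 fold change -0.69, SE 0.19, adjusted P = 0.161, edgeR). DESeq2, which called 3.11% of the genes it tested, called all 3, with adjusted P = 0.0080 for Gpsm1, 0.0197 for Gpsm2 and 0.0268 for Gprin2. With the choroid plexus score in the edgeR model, the log2 fold change was 0.22 for Gpsm2, -0.37 for Gprin2 and -0.49 for Gpsm1. With the telencephalic score it was 0.30, -0.67 and -0.55, respectively.

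The beta and gamma subunits form the dimer that acts on GIRK and calcium channels. Of these, 0 of 15 were called by edgeR, and 2 had an unadjusted P below 0.05 (12.1% of all genes did). Both were named after their values were seen. Gng5 had a log2 fold change of 0.78 (adjusted P = 0.304, edgeR) at under 1 CPM in both groups. It was 0.12 with the choroid plexus and 0.39 with the telencephalic score. Gng10 had 0.46 (adjusted P = 0.185 by edgeR and 0.0453 by DESeq2), which was 0.52 and 0.36 with these scores, respectively. Among those with a mean of at least 1 CPM, Gnb4 had the lowest log2 fold change at -0.34 (adjusted P = 0.550), which was -0.22 with the choroid plexus score, -0.61 with the telencephalic score and -0.19 without morphine replicate 8. Of the 22 effectors, 1 was called (0.195% of all genes were), Adcy1, which encodes the calcium-stimulated adenylyl cyclase of neurons. It was upregulated in the morphine group, at 314, 334, 368 and 406 CPM in the control and 528, 579, 601 and 572 CPM in the morphine libraries, with every morphine library above the control libraries (log2 fold change 0.68, SE 0.10, adjusted P = 0.0415, edgeR). The call was lost in 11 of the 20 alternative fits, among them those with the choroid plexus score (log2 fold change 0.47, adjusted P = 1.00), the telencephalic score (0.46, adjusted P = 0.640) and the striatal score (0.68, adjusted P = 0.0579), and those without any of 6 single libraries, where adjusted P was 0.0511 to 0.132 and the log2 fold change 0.61 to 0.68. At an unadjusted P below 0.05 there were 7 of the 22 effectors, all higher in the morphine group, beside 12.1% of all genes. Among these were the GIRK channel genes Kcnj3, at 58.3 ± 3.05 and 73.7 ± 3.86 CPM without overlap (log2 fold change 0.34, SE 0.08, adjusted P = 0.143 by edgeR and 0.0097 by DESeq2), and Kcnj6, at 27.7 ± 3.25 and 38.1 ± 6.58 CPM (0.46, SE 0.14, adjusted P = 0.205), both named after their values were seen. With the choroid plexus score these were 0.18 for Kcnj3 and 0.08 for Kcnj6, and with the telencephalic score 0.22 and 0.12, respectively. Plcb4, the phospholipase C beta that is abundant in thalamus and a target of Gq, had the lowest log2 fold change of the effectors with a mean of at least 1 CPM at -0.29 (adjusted P = 0.551), which turned to 0.22 with the choroid plexus score and to 0.12 with the telencephalic score in the model and was -0.16 without control replicate 5. It was at 392, 260, 441 and 271 CPM in the control and 311, 249, 307 and 251 CPM in the morphine libraries. The median log2 fold change was -0.08 for the other alpha subunits, 0.05 for the modulators, 0.07 for the beta and gamma subunits and 0.20 for the effectors, beside 0.0088 for all genes.

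For the most abundant member of each class, the genes with the most similar profile over the 8 libraries were sought among the 9371 other genes with a mean of at least 10 CPM, by the root mean square difference of log2 CPM after centring. They were Osbp (0.032) and Noc4l (0.036) for Gnao1, 4933421O10Rik (0.036) for Gnas, and Kif3b (0.030) and Lin7a (0.031) for Gnaq. The SD of the log2 CPM of these members over the 8 libraries was 0.131 for Gnao1 and Gnas and 0.132 for Gnaq. These names are a description over 8 libraries, with no test.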

How the data were processed

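RNA of MOR-expressing neurons was measured by TRAP-Seq in 8 libraries, and groups, sex and replicate were taken from the labels. The table that the authors deposited holds unnormalized read counts for 24488 RefSeq transcripts of 18939 genes, in which a read that transcripts share appears on each of them. The submitters' processing notes name mm10 and DESeq2, and the paper's methods describe Salmon and tximport, but the tool that made this table and its use of strand are not given in the sources used here. All columns were used (0 without a sample). The plan assumed 1 count per gene, so the transcript with the highest total represented each gene.

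TMM factors were computed in edgeR 4.0.16 under R 4.3.3, and its quasi-likelihood test was run with condition as the only term, over all genes, with Benjamini-Hochberg adjustment. Intervals are 95% and come from the test's standard error. A marker score averages the log2 CPM (prior count 2) of a list's genes. CPM per kilobase uses lengths of GENCODE transcripts on GRCm38. The tests were tried on simulated counts. Figures were drawn with matplotlib 3.10.9.

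All 9 members were named, and from each other list the called genes and the largest rise and fall at a mean of at least 1 CPM. For the most abundant member of each class, the 2 genes of most similar profile were taken, and 1 of these is not reported here. Members and lists were chosen with earlier results of these data known. In the lists, 3 genes were matched by older symbols. Further marker lists had 0 called genes and overlapped between groups in their summed CPM: medial habenula (137 to 233 in control, 140 to 182 in morphine), GABAergic (993 to 1404, 741 to 1224), astrocyte (248 to 437, 320 to 384), oligodendrocyte (122 to 1243, 581 to 1546), microglia (6.92 to 16.0, 7.70 to 15.4), endothelial (4.10 to 10.5, 3.41 to 5.78) and ependymal (4.67 to 6.41, 4.75 to 10.7). Log2 fold changes were above 0 in 8 of 8 oligodendrocyte genes (median 0.62) and 7 of 8 astrocyte genes (median 0.37). They were below 0 in 6 of 8 endothelial genes (median -0.29) and 2 of 3 GABAergic genes (median -0.20). The medians were -0.03 for microglia, 0.19 for medial habenula and 0.25 for ependymal genes. Of the striatal list 0 of 9 genes were called and of the thalamic list 0 of 6. Itpka was the called gene of the telencephalic list.

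Alternatives were DESeq2 1.42.0, limma-voom (limma 3.58.1), upper-quartile or RLE factors, a filter by filterByExpr or by a minimum of 10 counts per library, the terms sex, choroid plexus score or telencephalic score, the sum over transcripts and each library left out. Other length scales, the striatal score, leaving out morphine replicates 4 and 7 and the interaction without control replicate 5 were added after the data had been seen. No sequencing batch is given in the labels.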

Additional observations from a re-analysis of the deposited data

Results flagged for a closer look

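In groups of 4 libraries, a value was marked when its gap to the nearest other library exceeded 0.829 of the group's range, which chance alone does in about 5% of groups. Of 30 groups checked, 2 were marked. Gnaq in control replicate 2 was at 345.79 CPM, below the other control libraries at 439.05 to 451.14 CPM (gap ratio 0.885). The Gs transcript of Gnas exceeded the XL transcript that shares its downstream exons by 2.4809% of the Gs count in morphine replicate 3, against 0.92548% to 1.1491% in the other morphine libraries (gap ratio 0.856). Morphine replicate 3 was also the library with the highest Gnas value.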

How the results depend on the processing

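No paired analysis was possible because the groups share no replicate numbers. In every alternative run, 0 of the 9 alpha subunit genes were called, and Gnai2, Gnaz and Gna11 stayed below 0. The count of all genes called, 37 by edgeR, was 498 with DESeq2 (322 of them higher in morphine), 23 with limma-voom, 14 with filterByExpr, 15 with at least 10 counts in every library, 110 with sex in the model, 22 with the sum over transcripts, 18 with the striatal score, 1 with the telencephalic score, 0 with the choroid plexus score (603 at an unadjusted P below 0.05) and 0 without morphine replicates 4 and 7 (2061 unadjusted). With a library left out it was 0 to 77, with 0 without morphine replicate 4 (1697 unadjusted) or 8 (1664 unadjusted). It was 1 without control replicate 1, 11 without morphine replicate 7, 20 without control replicate 5, 76 without morphine replicate 3 and 77 without control replicate 6.

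Signs turned for 6 alpha subunit genes and for Gna12, Plcb4 and Gng7, and the cause was not tested. With upper-quartile factors, Gnai1 was at -0.0013 and Gnao1 at -0.025. With the telencephalic score, Gnai1 was at -0.0061, Gnai3 at -0.089, Gnao1 at -0.14, Gnas at 0.024 and Plcb4 at 0.12. With the choroid plexus score, Gnaq was at 0.053, Gna12 at -0.25 and Plcb4 at 0.22. Gnao1 was at -0.017 with filterByExpr, at -0.015 with the striatal score and at -0.011 with the sum over transcripts. Without morphine replicates 4 and 7, Gnao1 was at -0.14, Gnas at 0.079, Gnal at -0.11 and Gng7 at -0.39. With a library left out, the log2 fold change ranged from -0.080 to 0.079 for Gnai1, -0.074 to 0.047 for Gnao1, -0.13 to 0.023 for Gnas, -0.037 to 0.13 for Gnal and -0.12 to 0.0041 for Gnaq. The group difference of the Gi/o share, 0.10 points, ranged from -0.71 (without morphine replicate 4) to 1.17 (without morphine replicate 3) and turned below 0 without morphine replicate 7 or control replicate 2, unscaled (-0.095) and with coding length (-0.064). For the Gi/o share, these differences lay within the SD of 1.29 points in the control and 2.62 points in the morphine group. Single genes could move by more than their spread. The SD of log2 CPM over the libraries was 0.69 for Gng7, 0.31 for Plcb4, 0.37 for Gna12 and 0.17 for Gnai3, and each moved by more. Depth does not limit the 9 genes, whereas the XL counts of Gnas are few.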
